A study of Mus musculus with 10 samples.

Results

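Bone marrow derived macrophages, primary phagocytes grown in culture from mouse marrow, were compared between cells labelled wild type (WT) and cells labelled Tlr4 -/- (KO) after both had spent 6 h in a control medium with 5% fetal bovine serum (FBS) and 2% bovine serum albumin (BSA). The comparison takes the control-medium libraries of each genotype, 2 WT and 2 KO, which are 4 of the 10 libraries of the series. All groups were of the strain C57BL/6. The other 6 libraries were 2 each from untreated WT cells, untreated KO cells and KO cells given Poly(I:C), which mimics viral double-stranded RNA, and they enter here through the shared estimate of spread and through the untreated genotype difference. RNA was sequenced after a stranded mRNA preparation. The labels do not describe how the Tlr4 allele was made or backcrossed, how the marrow cells were differentiated, how long untreated cells had been in which medium, the age or sex of the mice, or whether the mice were littermates. They do not say that the samples of a group were separate cultures or animals, so the p-values measure only how far these samples scatter, which may be technical. No agonist of TLR4 is named in the labels of either group.

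TLR4 is the receptor through which macrophages sense lipopolysaccharide (LPS), the outer membrane lipid of Gram-negative bacteria. LPS is handed by LBP and CD14 to the TLR4 and MD-2 complex (MD-2 is encoded by Ly96), which signals through MyD88 to the NF-kB and AP-1 transcription factors and, from endosomes, through TRIF (Ticam1) to IRF3 and the type I interferon genes. Secreted interferon then acts back on the cells through JAK kinases and STAT factors to induce interferon-stimulated genes. In macrophages the same signals are known to raise glycolysis, nitric oxide and itaconate production and prostaglandin synthesis, to change cholesterol and fatty acid handling, and to slow proliferation.

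The deposited values were whole numbers already multiplied by a factor for each library. They were expressed here as CPM, each value divided by its library's total times that library's TMM (trimmed mean of M values) factor. The CPM of different libraries thus do not sum to the same total, as they would with scaling by totals alone. Pairs of values below are always given for replicate 1 and then replicate 2. A difference is KO minus WT on the log2(CPM + 0.1) scale with its standard error (SE), so that a negative value means lower in KO, and this scale understates the change of low genes. A gene is called when its Benjamini-Hochberg adjusted p from limma, over all 13171 genes tested, is under 0.05. CPM values are not divided by transcript length and are compared within a gene only.

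The WT control libraries held 42.0 and 41.1 M units and the KO control libraries 25.7 and 26.7 M. The number of reads behind them was estimated at 32.2 and 56.5 M in WT and 31.1 and 18.3 M in KO. The estimates for WT control 2 and KO control 1 rest on fitted factors of 0.7275 and 0.825, which skipped whole numbers cannot check. The control libraries of a genotype correlated at 0.993 across genes on the log scale, and libraries of different genotypes at 0.920 to 0.930. The WT control libraries stood nearer to the KO libraries given Poly(I:C), at 0.981 to 0.987, than to untreated WT libraries, at 0.904 to 0.919. The KO control libraries stood near the untreated libraries of both genotypes, at 0.980 to 0.986. Mitochondrial genes took 1.58% and 1.54% of the units in WT control and 2.28% and 2.51% in KO control, and the 20 most abundant genes took 13.6% and 13.96% against 15.8% and 16.3%. TMM factors were 0.853 and 0.814 in WT control and 1.18 and 1.16 in KO control, so the scaling itself differs between the genotypes, and its part in the results below is given through the other scalings.

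Tlr4 itself (ENSMUSG00000039005, chromosome 4, 66827584 to 66930284 in GRCm38) was read in every control library, at 32.3 and 39.0 CPM in WT and 30.8 and 34.6 CPM in KO. The KO values lay within or just below the WT range, and the groups overlapped. The difference of −0.12 (SE 0.14) did not pass (adjusted p = 0.488 with limma). Scaling by totals alone turned it to 0.37 with an adjusted p of 0.0228. Untreated cells held 64.6 CPM in WT and 44.7 CPM in KO on average, and the genotype difference did not pass there either (adjusted p = 0.346). One value per gene does not show which exons were read, so this level neither shows nor denies a deletion, and every direction below rests on the genotype labels.

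The genotypes differed widely in the control medium. Of 13171 genes tested, 3975 (30.2%) were lower in KO and 4072 (30.9%) higher, and 5124 did not pass. With a difference of at least 2-fold in addition, 1729 (13.1%) were lower and 1643 (12.5%) higher. The median difference over all genes was 0.03. The largest differences lay on one side, since 132 of the called genes were lower by 4 or more on the log2 scale and 13 were higher by as much, which the plot of gene levels by genotype label shows as a long lower edge. In untreated cells the same contrast called 22 genes (0.167%), 11 lower and 11 higher. The split of calls depended on the scaling. The share of higher genes among those called was 50.6% as reported, 47.9% with the median of ratios and with the rlog table, 78.7% with totals alone (2077 lower, 7672 higher) and 37.5% with the deposited scaling (4934 lower, 2963 higher). The median of all genes lay at 0.50 with totals alone and at −0.14 with the deposited scaling, and list counts below are given with those scalings where the direction of a list turned.

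**Figure D1:**
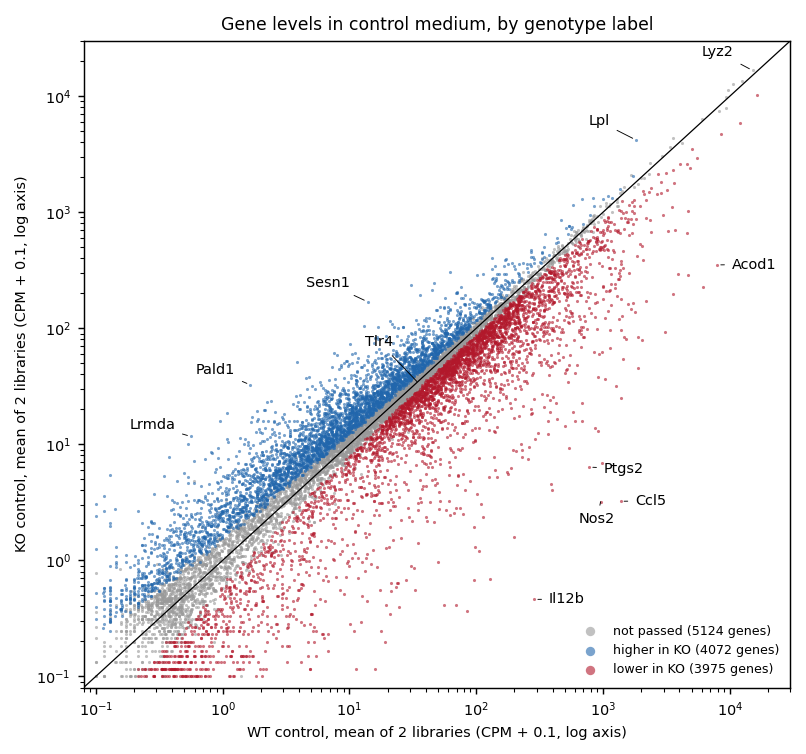
Mean level of each of the 13171 tested genes in WT control (x axis) and KO control (y axis), as CPM + 0.1 on log axes, each the mean of 2 libraries, with 3975 genes lower in KO in red, 4072 higher in blue and 5124 that did not pass in grey. The line marks equal levels, and genes such as Il12b, Ccl5 and Nos2 lie far below it while Tlr4 lies close to it.

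The largest differences were taken among called protein-coding genes with at least 10 CPM in the higher group, values above 0 in all 4 libraries and groups that did not overlap on any scaling, 12 in each direction. The 12 lower genes included cytokines, chemokines and enzymes of activated macrophages. Il12b, the p40 subunit shared by the cytokines IL-12 and IL-23, was at 338 and 235 CPM in WT and 0.396 and 0.324 CPM in KO (log2 −9.26, SE 0.23, adjusted p = 1.86e-09). Ccl5, a chemokine for T cells and monocytes, was at 1210.4 and 1533 CPM in WT and 3.24 and 3.02 CPM in KO (log2 −8.72, SE 0.23, adjusted p = 2.51e-09). Nos2, which makes nitric oxide in activated macrophages, was at 831 and 1080.3 CPM in WT and 3.63 and 2.56 CPM in KO (log2 −8.23, SE 0.18, adjusted p = 1.05e-09). The libraries of each genotype lay close together for these genes, and the genotypes were apart by 301-fold or more on the CPM + 0.1 scale. Cxcl9, a chemokine induced by interferon-gamma and related signals, was at 63.4 and 105 CPM in WT and 0.297 and 0.227 CPM in KO, and Csf3, the granulocyte growth factor G-CSF, at 78.1 and 59.1 CPM in WT and 0.198 and 0.422 CPM in KO. Il1a, an alarmin cytokine of the IL-1 family, was at 100.2 and 92.3 CPM in WT and 0.528 and 0.616 CPM in KO. Serpinb2, a serine protease inhibitor of activated macrophages, was at 63.7 and 46.8 CPM in WT and 0.231 and 0.389 CPM in KO, and Upp1, which splits uridine, at 184 and 212 CPM in WT and 1.82 and 1.17 CPM in KO. Their differences were −7.83, −7.43, −7.16, −7.09 and −6.99. Il6, Ifi205, Ptgs2 and Ccl12 complete the 12 and are described with their groups, as is Cxcl11, which was listed at 0 in 1 KO library and so fell outside these limits.

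The 12 higher genes under the same limits were of mixed function. Lrmda, known from its link to melanocytes, was at 0.475 and 0.448 CPM in WT and 11.4 and 11.7 CPM in KO (log2 4.38, SE 0.14, adjusted p = 7.54e-09). Pald1, which encodes the phosphatase-like protein paladin, was at 1.45 and 1.64 CPM in WT and 32.4 and 32.4 CPM in KO (log2 4.30, SE 0.22, adjusted p = 1.11e-07). St6gal1, which adds sialic acid to secreted and surface proteins, was at 0.979 and 0.986 CPM in WT and 17.6 and 19.3 CPM in KO (log2 4.10, SE 0.12, adjusted p = 3.65e-09). Both KO libraries were above both WT libraries in each case, as the choice of genes required. Gpr155, a cholesterol sensor of the lysosome membrane, was at 0.867 and 0.836 CPM in WT and 14.1 and 17.7 CPM in KO. Rnf150, a member of the RING finger family, was at 3.63 and 3.94 CPM in WT and 47.7 and 55.2 CPM in KO. Slc46a3, a lysosomal transporter, was at 1.65 and 1.55 CPM in WT and 17.7 and 16.2 CPM in KO, and Zdhhc14, a palmitoyltransferase, at 0.839 and 1.14 CPM in WT and 10.8 and 11.1 CPM in KO. The differences for Gpr155, Rnf150, Slc46a3 and Zdhhc14 were 4.06, 3.73, 3.32 and 3.36. The remaining genes of the 12 were Sesn1 (3.62) and Nlrp1b (3.38), described below, Fam214a (3.39), the endocytosis protein Reps2 (3.29) and the cytosolic deglycosylating enzyme Engase (3.24). The plot of single libraries shows these 24 genes, which were chosen so that no KO value lay within the WT range.

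**Figure D2:**
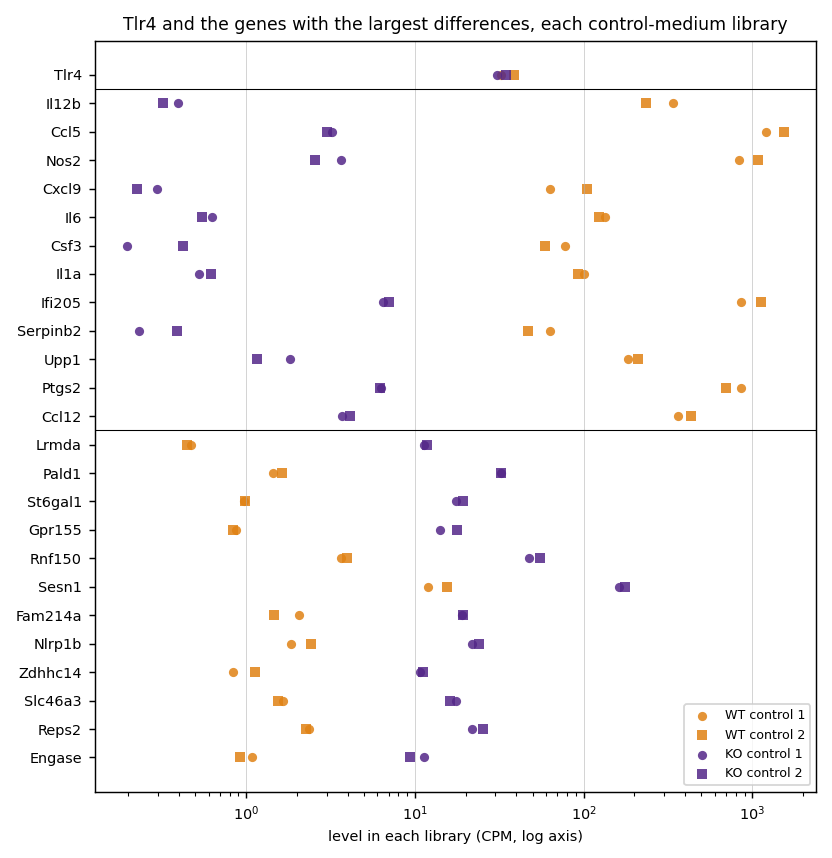
Level of Tlr4 and of 12 lower and 12 higher genes in each control-medium library (the largest differences among protein-coding genes with at least 10 CPM in the higher group and values above 0 in all 4 libraries), in CPM on a log axis, with circles for replicate 1, squares for replicate 2, orange for WT and purple for KO. The WT and KO ranges overlap for Tlr4. The other 24 genes were chosen so that the ranges do not overlap on any scaling, and Il12b shows the widest gap.

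Among the 12 genes of the LPS receptor complex and of the chaperones that fold Toll-like receptors, 7 were lower, 2 higher and 3 did not pass, with a median of −0.43, where 30.2% of all tested genes were lower and 30.9% higher. On totals alone the 12 genes split into 3 lower and 3 higher, and the median turned to 0.05. The shares of 30.2% and 30.9% over all tested genes are also the background for each list count below. Cd14, the surface protein that passes LPS to TLR4, was at 1075 and 1023 CPM in WT and 217 and 201 CPM in KO (log2 −2.33, SE 0.08, adjusted p = 1.27e-08). Ly96, which encodes MD-2, was at 20.9 and 23.5 CPM in WT and 11.95 and 12.7 CPM in KO (−0.84), a call lost on totals alone (−0.36). Ly86, which encodes MD-1, the partner of the TLR4 homologue CD180, was at 137 and 154 CPM in WT and 81.4 and 85.2 CPM in KO (−0.80), while Cd180 itself at 383 and 507 CPM in WT and 348 and 397 CPM in KO did not pass. Lrrc59, an endoplasmic reticulum protein in the transport of nucleic acid sensing receptors, was lower (−1.11), and so was the chaperone Hsp90b1, also called gp96 (−0.56). Cnpy3 and Cnpy4, cofactors of gp96, were the members that stood higher, Cnpy4 at 7.05 and 7.41 CPM in WT and 16.1 and 14.1 CPM in KO (1.05) and Cnpy3 by 0.52. Lbp in these cells was at 22.1 and 26.7 CPM in WT and 17.5 and 18.8 CPM in KO (−0.42).

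Of the 10 other Toll-like receptors tested, 6 were lower, 1 higher and 3 did not pass, with a median of −0.84. Tlr3, the receptor for double-stranded RNA, was at 88.8 and 106 CPM in WT and 10.5 and 11.03 CPM in KO (log2 −3.16, SE 0.11, adjusted p = 1.4e-08). Tlr7, the sensor of single-stranded RNA, was at 316 and 345 CPM in WT and 104 and 114 CPM in KO (−1.60), and Tlr1, a partner of TLR2 for bacterial lipoproteins, at 227 and 246 CPM in WT and 93.3 and 99.2 CPM in KO (−1.29). Both WT libraries were above both KO libraries for these receptors. The single member that stood higher was the flagellin receptor Tlr5, named after its values were seen, which was under 1 CPM in all 4 libraries, and without KO control 1 a further member passed in that direction.

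Adaptors and proximal kinases were lower more often than higher. Of 26 tested, 18 were lower, 5 higher and 3 did not pass (median −0.43), against 10 lower and 9 higher on totals alone with a median of 0.06. Wdfy1, an adaptor reported to link TLR3 and TLR4 to TRIF, was at 94.1 and 100.2 CPM in WT and 10.5 and 10.8 CPM in KO (log2 −3.18, SE 0.11, adjusted p = 1.44e-08). Peli1, a ubiquitin ligase of the TRIF and IRAK pathways, was at 214 and 229.6 CPM in WT and 32.3 and 30.8 CPM in KO (log2 −2.81, SE 0.09, adjusted p = 9.49e-09). Myd88, the common adaptor, was at 294 and 339 CPM in WT and 99.4 and 97.7 CPM in KO (log2 −1.68, SE 0.08, adjusted p = 7.04e-08). WT and KO libraries were well apart for all of these. Irak2, the sustaining kinase of MyD88 signalling, differed by −1.50, and the kinases of the interferon branch Ikbke and Tbk1 by −1.40 and −1.08. Ticam1 (TRIF) and its bridging adaptor Ticam2 (TRAM) were lower by less, at −0.79 and −0.94, and Traf6 at −0.76. Irak4, the kinase that opens the MyD88 cascade, was at 25.4 and 25.7 CPM in WT and 36.6 and 33.3 CPM in KO, higher by 0.45, and Tab1, a subunit of the TAK1 complex, was higher by 0.64. Peli2, the paralogue of Peli1, was at 1.54 and 2.57 CPM in WT and 14.6 and 12.7 CPM in KO, higher in KO (log2 2.71, SE 0.21, adjusted p = 2.52e-06). The bridging adaptor Tirap (adjusted p = 0.0874), Tab3 (adjusted p = 0.376) and Ripk1 (adjusted p = 0.963) did not pass.

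All 11 genes for NF-kB subunits and their inhibitors were lower in KO, with a median of −1.28, under the scaling used here and with the deposited scaling, the median of ratios and the rlog table. On totals alone 10 of them were lower and 0 higher. NF-kB induces many of these genes itself, among them its own inhibitors. Nfkbie, the inhibitor IkB-epsilon, was at 102 and 148 CPM in WT and 13.7 and 12.6 CPM in KO (log2 −3.22, SE 0.19, adjusted p = 3.62e-07). Nfkbib, the inhibitor IkB-beta, was at 65.6 and 89.6 CPM in WT and 18.2 and 12.04 CPM in KO (−2.37), and Nfkb2, the precursor of the p52 subunit, at 313 and 377 CPM in WT and 89.9 and 88.9 CPM in KO (−1.94). Both WT libraries were above both KO libraries throughout.

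Genes that restrain inflammation followed, with exceptions. Of 24 tested, 17 were lower, 4 higher and 3 did not pass (median −1.36). Il1rn, the antagonist of the IL-1 receptor, was at 1549 and 1489.6 CPM in WT and 75.7 and 84.1 CPM in KO (log2 −4.25, SE 0.09, adjusted p = 9.38e-10). Socs3, which blocks signalling downstream of IL-6 family receptors, was at 502 and 509.6 CPM in WT and 46.7 and 41.1 CPM in KO (log2 −3.53, SE 0.11, adjusted p = 8.23e-09), and Socs1, which blocks JAK kinases, at 10.2 and 13.1 CPM in WT and 0.991 and 0.908 CPM in KO (−3.48). These genes were high in both WT libraries. Other members were higher in KO. Zfp36l1 and Zfp36l2, which bind AU-rich elements in mRNA, were at 13.2 and 20.3 CPM in WT and 58.5 and 51.4 CPM in KO (1.74) and at 32.3 and 43.0 CPM in WT and 98.0 and 95.0 CPM in KO (1.37). Tsc22d3, the glucocorticoid-induced leucine zipper, was at 13.001 and 17.0 CPM in WT and 48.8 and 45.7 CPM in KO (1.66).

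Of 23 inflammatory cytokine genes tested, 22 were lower, 0 higher and 1 did not pass, and the 22 were all lower by at least 2-fold (median −3.18). Il6, which drives the acute phase response, was at 134 and 124 CPM in WT and 0.627 and 0.551 CPM in KO (log2 −7.55, SE 0.23, adjusted p = 6.73e-09), a 188-fold difference. Tnf, the early cytokine of macrophage activation, was at 1100.3 and 1104 CPM in WT and 133 and 149.7 CPM in KO (log2 −2.96, SE 0.08, adjusted p = 2.14e-09), Ifnb1, the interferon-beta gene of the TRIF branch, at 0.923 and 1.46 CPM in WT and 0.0660 and 0 CPM in KO, and the anti-inflammatory Il10 at 55.0 and 57.9 CPM in WT and 21.5 and 21.4 CPM in KO (−1.39). WT libraries were above KO libraries for each, and Ifnb1 was listed at 0 in KO control 2. Tnf, Ifnb1 and Il10 were picked after their values were seen, for their place in the pathway. The gene that did not pass was Tgfb1, a cytokine that damps inflammation, at 147 and 173 CPM in WT and 133 and 114 CPM in KO (adjusted p = 0.0887).

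Chemokine genes were lower as well. Of 12 CC chemokine genes, 11 were lower, 0 higher and 1 did not pass (median −3.58), and of 12 CXC chemokine genes 10 were lower, 0 higher and 2 did not pass (median −2.68). Besides Ccl5, Ccl12, a ligand of the monocyte receptor CCR2, was at 365 and 433 CPM in WT and 3.73 and 4.15 CPM in KO (log2 −6.62, SE 0.11, adjusted p = 4.33e-10), and Ccl8 at 7.10 and 14.6 CPM in WT and 0.0660 and 0.227 CPM in KO (−5.46). Cxcl10, a ligand of CXCR3 on T cells, was at 1210.5 and 1561 CPM in WT and 22.4 and 27.9 CPM in KO (log2 −5.78, SE 0.17, adjusted p = 5.45e-09). Cxcl11, another CXCR3 ligand, was at 11.6 and 19.7 CPM in WT, at 0.0330 CPM in KO control 1 and listed at 0 in KO control 2. Ccl22 was listed at 0 in both KO libraries and stood at 0.447 and 0.807 CPM in WT, and it was named after its values were seen. No fold is given against a group at 0. No WT value of these chemokines lay within the KO range.

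Of 31 receptors for chemoattractants and cytokines, 24 were lower, 5 higher and 2 did not pass (median −0.91). The count of higher receptors was 3 without WT control 1, without KO control 1 and with the deposited scaling. Ccrl2, an atypical receptor for chemerin, was at 169 and 208 CPM in WT and 5.65 and 6.55 CPM in KO (log2 −4.92, SE 0.23, adjusted p = 6.94e-08), Tnfrsf1b, the TNF receptor 2, at 4548 and 4731 CPM in WT and 1019.9 and 1024 CPM in KO (−2.18), and Il17ra at 98.2 and 91.0 CPM in WT and 24.5 and 25.5 CPM in KO (−1.91). On the higher side, Cxcr4, the receptor for CXCL12, was at 4.73 and 6.66 CPM in WT and 18.7 and 16.8 CPM in KO (log2 1.64, SE 0.17, adjusted p = 1.78e-05) and Il6ra at 38.4 and 41.0 CPM in WT and 94.7 and 94.8 CPM in KO (1.25). The fractalkine receptor Cx3cr1 was at 25.1 and 23.6 CPM in WT and 51.3 and 40.1 CPM in KO (0.89), a call that was lost with the deposited scaling (0.72), with no filter on low values, without KO control 1 (0.72), without WT control 1 (0.94) and without WT control 2 (0.85).

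Interferon-stimulated genes were lower without exception. All 52 tested were lower in KO by at least 2-fold, with a median of −3.24 and a range of −7.15 to −1.82, and all 52 were lower with totals alone, with the deposited scaling, with the median of ratios and in the rlog table. In untreated cells their median was −0.45, and 2 of them (Cmpk2 and Phf11b) passed there. Ifi205, a DNA-binding protein of the PYHIN family, was at 852 and 1124 CPM in WT and 6.50 and 7.07 CPM in KO (log2 −7.15, SE 0.26, adjusted p = 1.64e-08). Slfn4, of the Schlafen family, was at 397 and 378 CPM in WT and 3.40 and 5.42 CPM in KO (log2 −6.46, SE 0.23, adjusted p = 1.27e-08). Gbp5, a guanylate-binding protein that acts on pathogen membranes and inflammasomes, was at 833 and 982 CPM in WT and 13.3 and 12.7 CPM in KO (log2 −6.11, SE 0.11, adjusted p = 4.4e-10). The KO libraries of each gene lay close together, far below both WT libraries. These 3 genes belong to families of similar neighbours, and the sources used here do not say how reads were split among them.

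Of 22 genes for interferon regulatory factors, STAT factors and JAK kinases, 17 were lower, 1 higher and 4 did not pass (median −1.03). Irf7, which amplifies the interferon response, was at 1651 and 2097 CPM in WT and 74.1 and 92.9 CPM in KO (log2 −4.49, SE 0.20, adjusted p = 5.38e-08), Batf2, a partner of IRF1, at 41.8 and 58.8 CPM in WT and 2.54 and 2.82 CPM in KO (−4.16), and the kinase Jak2 at 367 and 415 CPM in WT and 57.4 and 60.6 CPM in KO (−2.72). The sole member called higher was Batf3, known from dendritic cell development, at 1.68 and 1.85 CPM in WT and 6.50 and 4.77 CPM in KO (1.61). Irf3, which TRIF activates through phosphorylation and not through its mRNA level, was at 26.1 and 30.7 CPM in WT and 35.4 and 28.6 CPM in KO and did not pass (adjusted p = 0.414), and it was named after its values were seen.

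Promoter sequences were taken from RefSeq (GRCm38.p6), where 9917 of the 13171 tested genes had a window of 300 bases, from 250 before to 50 after the start. The windows of Il6, Ifi205 and Gbp5 are shown because these genes had the largest differences downward among cytokine, chemokine and interferon genes whose promoter held a core sequence of NF-kB sites (kB site, GGGANNTTCC) or the interferon-stimulated response element (ISRE, GAAANNGAAA). Each line gives the 200 bases before the start, read 5′ to 3′ on the gene's strand, with matches on either strand in capitals.
Ifi205 (chr1:174031756-174031955, minus strand): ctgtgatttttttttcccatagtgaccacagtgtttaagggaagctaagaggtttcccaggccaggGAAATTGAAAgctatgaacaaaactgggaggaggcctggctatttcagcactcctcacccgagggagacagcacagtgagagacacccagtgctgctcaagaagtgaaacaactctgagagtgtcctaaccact
Gbp5 (chr3:142496734-142496933, plus strand): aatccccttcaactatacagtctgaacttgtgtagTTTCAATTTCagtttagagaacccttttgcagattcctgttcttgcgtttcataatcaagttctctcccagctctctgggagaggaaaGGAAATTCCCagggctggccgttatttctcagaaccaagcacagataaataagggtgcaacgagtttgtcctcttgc
Il6 (chr5:30012914-30013113, plus strand): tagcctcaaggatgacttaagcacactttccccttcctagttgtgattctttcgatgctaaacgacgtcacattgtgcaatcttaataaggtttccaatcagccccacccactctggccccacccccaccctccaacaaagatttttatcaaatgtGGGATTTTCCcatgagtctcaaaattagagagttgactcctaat
The Ifi205 stretch holds an ISRE that begins 134 bases before the start. The Gbp5 stretch holds an ISRE on the opposite strand, beginning 165 bases before the start, and a kB site on the opposite strand, beginning 77 bases before it. The Il6 stretch holds a kB site that begins 44 bases before the start. A match is a description of letters, not of binding.

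Both motifs were counted over whole windows on both strands. The ISRE stood in 138 of 1259 promoters of genes at least 2-fold lower in KO (11%), in 33 of 1230 promoters of genes at least 2-fold higher (2.68%), in 4.12% of the promoters of tested genes and in 3.99% of all 27025 genes with a promoter. In the interferon-stimulated list it stood in 25 of 40 promoters (62.5%). The kB site stood in 3.10% of the promoters of genes at least 2-fold lower, 1.71% of those at least 2-fold higher, 1.89% of tested genes and 1.63% of all genes with a promoter. In the CXC chemokine list it stood in 4 of 9 promoters (44.4%), in the NF-kB list in 2 of 8 and in the CC chemokine list in 0 of 7. The other tested members of these lists had no window in the set used. The shares are descriptions, and no test was run on them.

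**Figure D3:**
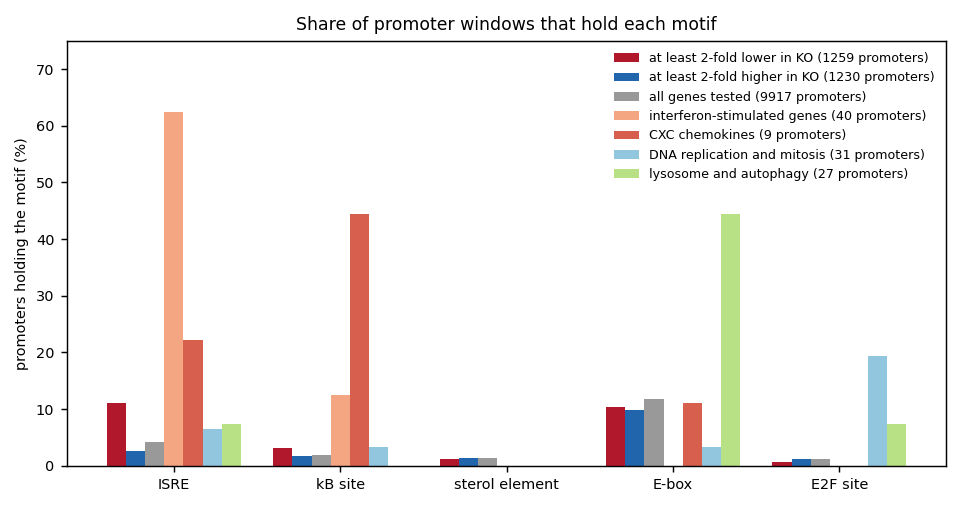
Share of promoter windows of 300 bases that hold each of 5 motifs (y axis, percent), for genes at least 2-fold lower or higher in KO, for all tested genes and for 4 gene lists, with the number of promoters in the legend. The ISRE bar of the interferon-stimulated genes reaches 62.5%, against 4.12% of tested genes, and bars are absent where 0 promoters held the motif.

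Of 28 immediate early and AP-1 genes, 22 were lower, 0 higher and 6 did not pass (median −1.48). Maff, a small Maf protein, was at 36.2 and 37.1 CPM in WT and 3.27 and 2.89 CPM in KO (log2 −3.54, SE 0.19, adjusted p = 1.98e-07), and Fosl1, which encodes the AP-1 subunit FRA-1, at 10.1 and 9.68 CPM in WT and 0.858 and 0.714 CPM in KO (−3.50). Ier3, a stress-inducible survival gene, was at 135 and 148 CPM in WT and 13.6 and 11.6 CPM in KO (−3.48). Both WT libraries were above both KO libraries for these genes. The classical members Fos and Myc, named after their values were seen, did not pass, at 66.4 and 66.5 CPM in WT and 55.4 and 59.2 CPM in KO for Fos and 47.1 and 49.2 CPM in WT and 40.3 and 34.6 CPM in KO for Myc.

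Of 22 genes of antigen presentation and co-stimulation, 20 were lower, 0 higher and 2 did not pass (median −1.77). Cd40, the co-stimulatory receptor for T cell help, was at 283 and 335 CPM in WT and 12.5 and 12.2 CPM in KO (log2 −4.62, SE 0.11, adjusted p = 1.86e-09). Cd274, which encodes the checkpoint ligand PD-L1, was at 1171 and 1490.0 CPM in WT and 115 and 124 CPM in KO (log2 −3.47, SE 0.21, adjusted p = 4.01e-07). Nlrc5, which activates transcription of MHC class I genes, was at 459.9 and 507 CPM in WT and 52.9 and 59.8 CPM in KO (−3.10). All 3 were high in WT and low in KO with no overlap.

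Of 32 genes of inflammasomes and cell death, 27 were lower, 2 higher and 3 did not pass (median −1.07). Il1b, the cytokine released after inflammasome activation, was at 1067 and 999 CPM in WT and 32.1 and 40.2 CPM in KO (log2 −4.84, SE 0.19, adjusted p = 2.38e-08), the sensor Nlrp3 at 627 and 608 CPM in WT and 46.3 and 49.2 CPM in KO (log2 −3.69, SE 0.09, adjusted p = 1.99e-09), and Zbp1, a nucleic acid sensor of necroptosis, at 479 and 576 CPM in WT and 30.5 and 38.1 CPM in KO (−3.94). The sensor Nlrp1b stood on the other side of this list, at 1.85 and 2.42 CPM in WT and 21.7 and 24.1 CPM in KO (log2 3.38, SE 0.16, adjusted p = 8.93e-08). Bcl2l11, which encodes the pro-apoptotic protein BIM, was at 41.8 and 50.8 CPM in WT and 77.1 and 86.9 CPM in KO (0.83). For both genes each KO library was above each WT library.

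Of 10 genes of nitric oxide, arginine and itaconate metabolism, 8 were lower, 0 higher and 2 did not pass (median −2.83), and on totals alone 8 lower and 2 higher. Besides Nos2, Slc7a2, the transporter that brings in arginine, was at 105 and 89.9 CPM in WT and 1.16 and 1.27 CPM in KO (log2 −6.21, SE 0.24, adjusted p = 2.13e-08). Acod1, the itaconate-forming enzyme, was at 7669.9 and 8209 CPM in WT and 356 and 346 CPM in KO (log2 −4.50, SE 0.08, adjusted p = 4.4e-10). Both WT libraries held these genes high, and the KO libraries were close to each other.

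Of 28 glycolysis and hypoxia-inducible genes, 24 were lower, 3 higher and 1 did not pass (median −1.09), and the higher count was 1 without WT control 2 and with the deposited scaling. Pfkfb3, which makes the activator of phosphofructokinase, was at 799 and 816 CPM in WT and 126 and 141 CPM in KO (log2 −2.60, SE 0.12, adjusted p = 5.09e-08). Slc2a1, the glucose transporter GLUT1, was at 629 and 689 CPM in WT and 122 and 118 CPM in KO (log2 −2.45, SE 0.09, adjusted p = 1.51e-08), and Adm, the hypoxia-inducible peptide adrenomedullin, at 8.36 and 8.39 CPM in WT and 0.892 and 1.17 CPM in KO (−2.92). In contrast Pfkfb4, another isoform of that enzyme, was at 19.99 and 21.1 CPM in WT and 31.3 and 31.2 CPM in KO, higher by 0.60. Pdk1, which closes the entry of pyruvate into the TCA cycle, was at 68.4 and 57.9 CPM in WT and 85.2 and 94.3 CPM in KO (0.51), a call lost with the deposited scaling (0.33) and without WT control 2 (0.39).

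The TCA cycle and the respiratory chain differed by less. Of 33 genes, 12 were lower, 3 higher and 18 did not pass, with a median of −0.12 and 1 difference past 2-fold, and the direction rested on the scaling, with 1 lower and 28 higher on totals alone. Without WT control 1, KO control 1 and KO control 2 the lower count was 6, 7 and 4. The gene past 2-fold was Cycs, cytochrome c, at 332 and 336 CPM in WT and 111 and 111 CPM in KO (log2 −1.59, SE 0.06, adjusted p = 2.14e-08). Idh2, the mitochondrial isocitrate dehydrogenase, was at 45.6 and 42.3 CPM in WT and 66.7 and 65.6 CPM in KO (0.59), and Mdh1, the cytosolic malate dehydrogenase, at 118 and 112 CPM in WT and 172 and 165 CPM in KO (0.55). Atp5b, a subunit of ATP synthase, was at 711 and 695 CPM in WT and 536 and 514 CPM in KO (−0.42) and turned to 0.064 on totals alone. Of 11 genes of the pentose phosphate pathway and NADPH supply, 4 were lower, 4 higher and 3 did not pass, and on totals alone 1 lower and 7 higher. The 4 and 4 lay near the shares over all tested genes, 30.2% lower and 30.9% higher. The higher count was 2 without WT control 2, without KO control 1 and with the deposited scaling. Idh1, which makes NADPH in the cytosol, was at 43.9 and 36.6 CPM in WT and 129 and 117 CPM in KO (log2 1.61, SE 0.10, adjusted p = 4.04e-07), Mthfd1, of folate metabolism, at 12.9 and 9.77 CPM in WT and 26.4 and 28.4 CPM in KO (1.28), and Rpe, ribulose-phosphate epimerase, at 64.9 and 66.6 CPM in WT and 35.6 and 35.5 CPM in KO (−0.89).

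The sterol synthesis pathway is controlled by SREBP2, which is held back by INSIG proteins and carried by SCAP. Of 26 genes of cholesterol synthesis and its control, 15 were lower, 3 higher and 8 did not pass (median −0.54), and on totals alone 10 lower and 8 higher with a median of −0.06. Hmgcs1, which makes the precursor of mevalonate, was at 169 and 154 CPM in WT and 69.8 and 69.5 CPM in KO (log2 −1.21, SE 0.10, adjusted p = 2.96e-06), and Idi1, an isomerase later in the pathway, at 74.7 and 62.5 CPM in WT and 31.2 and 29.7 CPM in KO (−1.16). Both WT libraries were above both KO libraries for these genes. Dhcr7, the enzyme of the last step to cholesterol, stood the other way at 7.16 and 6.03 CPM in WT and 16.0 and 15.9 CPM in KO (1.26), and so did Scap at 17.8 and 21.1 CPM in WT and 35.4 and 34.8 CPM in KO (0.85). The promoter of Hmgcs1 is shown because it was the only gene of this list with a window that held the sterol element searched (TCACNCCAC). The element begins 137 bases before the start and is given in capitals.
Hmgcs1 (chr13:119690151-119690350, plus strand): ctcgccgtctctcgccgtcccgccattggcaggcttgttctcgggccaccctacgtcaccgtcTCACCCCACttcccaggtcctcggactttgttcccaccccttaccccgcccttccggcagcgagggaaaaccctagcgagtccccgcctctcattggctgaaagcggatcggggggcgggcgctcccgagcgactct
Of 19 promoters in this list 1 held that element (5.26%), against 1.36% of tested genes and 1.44% of all genes with a promoter.

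LXR is the nuclear receptor that senses oxysterols and raises cholesterol efflux. Of its 18 targets and efflux genes, 5 were lower, 5 higher and 8 did not pass (median 0.08), against 3 lower and 11 higher on totals alone and 8 lower and 5 higher with the deposited scaling, so the list as a whole had no direction that held across scalings. The reported 5 and 5 also lay near the shares over all tested genes, 30.2% lower and 30.9% higher. Single members differed more clearly. Abca1, the efflux pump for cholesterol to apolipoproteins, was at 122 and 143 CPM in WT and 350.3 and 449 CPM in KO (log2 1.58, SE 0.22, adjusted p = 0.000151), and Arl4c, another LXR target, at 14.3 and 18.2 CPM in WT and 83.9 and 82.8 CPM in KO (log2 2.36, SE 0.13, adjusted p = 1.62e-07). Cyp27a1, which makes the oxysterol 27-hydroxycholesterol, was at 5.65 and 7.02 CPM in WT and 11.4 and 11.6 CPM in KO (0.86). Ch25h, which makes 25-hydroxycholesterol and is induced by interferon, was at 59.2 and 63.7 CPM in WT and 2.74 and 1.98 CPM in KO (log2 −4.66, SE 0.48, adjusted p = 1.7e-05), Nr1h3, which encodes LXR-alpha, at 82.5 and 96.8 CPM in WT and 34.7 and 37.6 CPM in KO (−1.31), and the lysosomal cholesterol carrier Npc2 at 1217 and 1419.8 CPM in WT and 664 and 682 CPM in KO (−0.97). Abca1 and Arl4c were thus high in KO while the gene for LXR-alpha was high in WT. The carrier Apoe and the pump Abcg1, named after their values were seen, did not pass, at 1367 and 1983 CPM in WT and 2049.8 and 2134 CPM in KO for Apoe and 78.2 and 142 CPM in WT and 138 and 155 CPM in KO for Abcg1.

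Of 19 genes of fatty acid synthesis, desaturation and elongation, 6 were lower, 7 higher and 6 did not pass (median 0.30). On totals alone 4 were lower and 13 higher, and with the deposited scaling 7 lower and 4 higher. Over all tested genes 30.2% were lower and 30.9% higher, near the 6 and 7 reported here. Fads1, the front-end desaturase, was at 7.35 and 7.80 CPM in WT and 32.8 and 31.3 CPM in KO (log2 2.07, SE 0.10, adjusted p = 6.13e-08), and Scd2, a stearoyl-CoA desaturase, at 47.3 and 44.6 CPM in WT and 112 and 125 CPM in KO (1.36). The acyl-CoA synthetases, which activate fatty acids, went in both directions. Acsl1 was at 299.9 and 346 CPM in WT and 52.3 and 50.8 CPM in KO (log2 −2.64, SE 0.08, adjusted p = 6.01e-09), Acsl5 at 493 and 443 CPM in WT and 269 and 246 CPM in KO (−0.86) and Acsl3 at 6.99 and 5.20 CPM in WT and 13.6 and 13.8 CPM in KO (1.17). Fasn, the fatty acid synthase, was named after its values were seen and did not pass, at 74.2 and 53.3 CPM in WT and 61.0 and 54.3 CPM in KO.

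Fatty acid oxidation genes were higher in KO more often than lower. Of 31 tested, 6 were lower, 17 higher and 8 did not pass, with a median of 0.42, a majority of higher calls that stood at 24 on totals alone and at 15 with the deposited scaling, where 10 were lower. Acad10, a dehydrogenase of the acyl-CoA family, was at 0.224 and 0.269 CPM in WT and 5.61 and 4.90 CPM in KO (log2 3.95, SE 0.18, adjusted p = 5.59e-08), and this gene was also higher in untreated KO cells. Pparg, the lipid-sensing nuclear receptor, was at 2.99 and 1.97 CPM in WT and 8.29 and 9.21 CPM in KO (1.80), and Acadm, the medium-chain dehydrogenase, at 16.2 and 15.3 CPM in WT and 44.5 and 42.9 CPM in KO (log2 1.47, SE 0.08, adjusted p = 2.44e-07). Both KO libraries were above both WT libraries. Against this direction Acadl, the long-chain dehydrogenase, was at 99.95 and 100.2 CPM in WT and 64.7 and 58.1 CPM in KO (−0.71), the peroxisomal thiolase Acaa1a at 160.0 and 174 CPM in WT and 82.6 and 81.0 CPM in KO (−1.03) and the receptor Ppard at 36.1 and 36.0 CPM in WT and 19.2 and 16.9 CPM in KO (−0.998).

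Of 27 genes of lipid uptake, droplets and lipases, 15 were lower, 10 higher and 2 did not pass (median −0.39), and on totals alone 11 lower and 12 higher. With a minimum of 5 CPM 6 were higher. Dgat2, which makes the triglyceride of lipid droplets, was at 30.7 and 33.1 CPM in WT and 0.991 and 0.519 CPM in KO (log2 −5.28, SE 0.25, adjusted p = 7.12e-08). Hilpda, a hypoxia-inducible lipase inhibitor on droplets, was at 59.8 and 62.3 CPM in WT and 5.68 and 5.00 CPM in KO (log2 −3.49, SE 0.14, adjusted p = 2.67e-08), and the oxidised lipoprotein receptor Olr1 at 8.53 and 12.1 CPM in WT and 0.991 and 0.908 CPM in KO (−3.29). Lpl, the lipase of lipoprotein triglycerides, was at 1880.5 and 1749 CPM in WT and 3965 and 4416 CPM in KO (log2 1.21, SE 0.10, adjusted p = 3.39e-06), the very low density lipoprotein receptor Vldlr at 6.85 and 5.65 CPM in WT and 18.6 and 18.1 CPM in KO (1.54) and the endocytic receptor Lrp1 at 690.4 and 661 CPM in WT and 1279 and 1338 CPM in KO (0.95). Dgat2, Hilpda and Olr1 were thus high in WT and Lpl, Vldlr and Lrp1 high in KO, with no overlap between the genotypes. The scavenger receptor Cd36, named after its values were seen, did not pass, at 827 and 714 CPM in WT and 808 and 852 CPM in KO.

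Of 34 genes of glycerolipid, ceramide and sphingolipid synthesis, 16 were lower, 7 higher and 11 did not pass (median −0.25), and on totals alone 11 lower and 17 higher. Cers6, a ceramide synthase, was at 362 and 351 CPM in WT and 104 and 102 CPM in KO (log2 −1.79, SE 0.08, adjusted p = 6.44e-08), and Lpcat2, an enzyme of platelet-activating factor synthesis, at 195 and 202 CPM in WT and 59.2 and 60.9 CPM in KO (−1.72). Lpin1, a phosphatidate phosphatase and transcriptional coactivator, was at 1.06 and 1.46 CPM in WT and 10.9 and 11.5 CPM in KO (log2 3.07, SE 0.20, adjusted p = 6.61e-07), and Sgpp1, which removes phosphate from sphingosine-1-phosphate, at 16.6 and 17.6 CPM in WT and 64.9 and 67.0 CPM in KO (1.95). KO libraries were above WT libraries for Lpin1 and Sgpp1 and below them for Cers6 and Lpcat2.

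Eicosanoids are lipid mediators made from arachidonic acid. Of 18 enzymes and receptors, 6 were lower, 10 higher and 2 did not pass (median 0.56, and 0.38 with the deposited scaling). Ptgs2, cyclooxygenase 2, was at 859.7 and 695 CPM in WT and 6.31 and 6.196 CPM in KO (log2 −6.93, SE 0.16, adjusted p = 1.08e-09), Ptges, which makes prostaglandin E2, at 338 and 248 CPM in WT and 12.1 and 9.96 CPM in KO (log2 −4.71, SE 0.14, adjusted p = 5.97e-09), and Pla2g4a, which frees arachidonic acid, at 111 and 87.4 CPM in WT and 34.7 and 32.5 CPM in KO (−1.55). These 3 were low in KO, and the next 3 were high in KO. Hpgd, which degrades prostaglandins, was at 0.140 and 0.418 CPM in WT and 8.22 and 7.23 CPM in KO (log2 4.47, SE 0.33, adjusted p = 1.69e-06), Alox5, the first enzyme of leukotriene synthesis, at 5.34 and 3.88 CPM in WT and 14.4 and 12.7 CPM in KO (1.55), and the lysosomal phospholipase Pla2g15 at 45.8 and 50.2 CPM in WT and 144 and 145 CPM in KO (1.59). The median of the list thus has the sign of its many smaller differences, while its largest difference, that of Ptgs2, was downward.

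**Figure D4:**
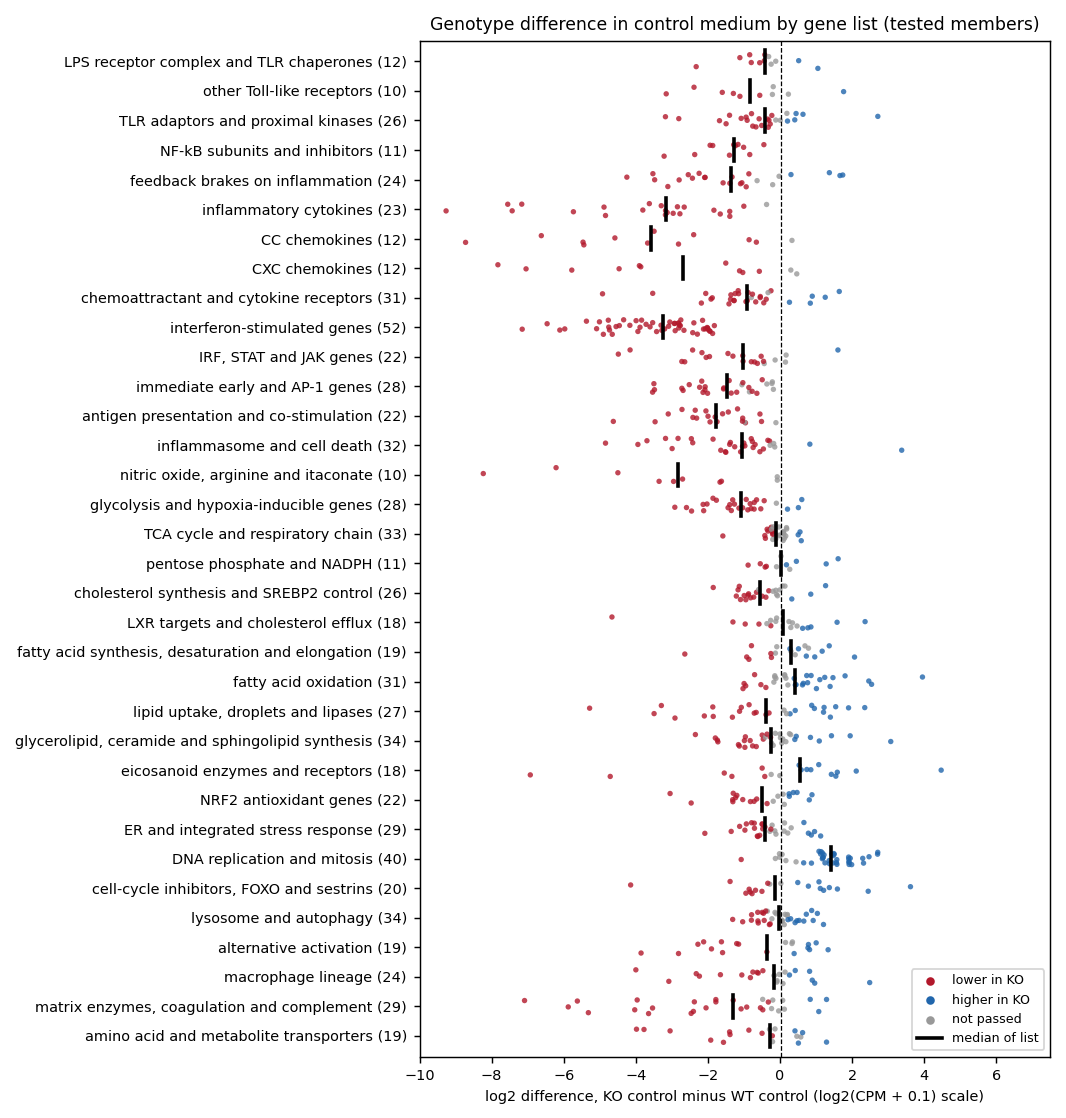
Difference of each tested list member (x axis, log2, KO control minus WT control) by gene list, with the number tested in brackets, red for lower, blue for higher and grey for members that did not pass. Thick bars give list medians and the dashed line the median of all genes at 0.03, which lay at 0.50 with totals alone, where several lists near the line changed side.

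Of 22 antioxidant genes under NRF2, 12 were lower, 6 higher and 4 did not pass (median −0.50), and on totals alone 10 lower and 10 higher. The higher count was 2 with the deposited scaling and 3 without KO control 1. Slc7a11, the cystine importer that feeds glutathione synthesis, was at 468 and 368 CPM in WT and 54.4 and 45.9 CPM in KO (log2 −3.05, SE 0.17, adjusted p = 2.35e-07), and Sod2, the mitochondrial superoxide dismutase, at 1236 and 1229 CPM in WT and 230.0 and 216 CPM in KO (−2.47). Catalase (Cat) was at 360.1 and 335 CPM in WT and 617 and 669 CPM in KO (0.89) and Gclm, a subunit of the glutathione-forming ligase, at 281 and 259 CPM in WT and 478 and 469 CPM in KO (0.81). Of 29 genes of the endoplasmic reticulum and integrated stress responses, 16 were lower, 5 higher and 8 did not pass (median −0.42), against 6 lower and 10 higher on totals alone. Ppp1r15a, the phosphatase subunit that ends the response, was at 78.2 and 90.2 CPM in WT and 18.7 and 20.8 CPM in KO (−2.09), the chaperone Hspa5 at 1802 and 1588 CPM in WT and 670.0 and 652 CPM in KO (−1.35), and the sensor kinase Eif2ak3, also called PERK, at 10.3 and 9.56 CPM in WT and 21.9 and 21.6 CPM in KO (1.13). Of 19 amino acid and metabolite transporters, 10 were lower, 4 higher and 5 did not pass (median −0.29), and on totals alone 8 lower and 8 higher, and without WT control 2 the higher count was 2. Slc2a6, a lysosomal hexose transporter, was at 354 and 457 CPM in WT and 25.95 and 24.8 CPM in KO (−3.98), the nucleoside importer Slc28a2 at 858 and 839.8 CPM in WT and 64.9 and 59.2 CPM in KO (−3.77), and Slc40a1, the iron exporter ferroportin, at 68.3 and 66.6 CPM in WT and 164 and 167 CPM in KO (1.29).

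Genes of DNA replication and mitosis were higher in KO nearly throughout. Of 40 tested, 1 was lower, 33 higher and 6 did not pass, 31 of the higher ones by at least 2-fold, with a median of 1.40. They stood at 37 higher on totals alone and 32 higher with the deposited scaling. Cenpf, a kinetochore protein, was at 4.73 and 3.17 CPM in WT and 33.0 and 20.3 CPM in KO (log2 2.71, SE 0.33, adjusted p = 5.26e-05). Bub1b, the checkpoint kinase BUBR1, was at 9.20 and 5.11 CPM in WT and 54.9 and 37.4 CPM in KO (log2 2.71, SE 0.31, adjusted p = 3.93e-05), and Kif20a, a kinesin of cell division, at 10.99 and 6.00 CPM in WT and 53.4 and 38.6 CPM in KO (log2 2.47, SE 0.29, adjusted p = 4.96e-05). In both genotypes replicate 1 was above replicate 2 for these genes, and both KO libraries were above both WT libraries. Cdt1, a licensing factor for replication origins, was the sole member called lower, at 44.3 and 55.2 CPM in WT and 26.8 and 20.4 CPM in KO (−1.08). The motif TTTGGCGC, a core of E2F sites, stood in 6 of 31 promoters of this list (19.4%), against 1.12% of tested genes and 0.585% of all genes with a promoter.

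Of 20 cell-cycle inhibitors, cyclins D, FOXO factors and sestrins, 9 were lower, 9 higher and 2 did not pass (median −0.13), and on totals alone 3 lower and 10 higher. Sesn1, a stress-inducible inhibitor of mTORC1 signalling, was at 11.97 and 15.6 CPM in WT and 163 and 175 CPM in KO (log2 3.62, SE 0.14, adjusted p = 2.02e-08). Cdkn2c, which encodes the inhibitor p18, was at 2.77 and 1.94 CPM in WT and 16.3 and 10.5 CPM in KO (2.45), and Rbl2, a retinoblastoma family member, at 18.6 and 20.2 CPM in WT and 59.9 and 57.4 CPM in KO (1.59). Ccnd2, cyclin D2, was at 122 and 154 CPM in WT and 7.36 and 7.92 CPM in KO (log2 −4.14, SE 0.12, adjusted p = 5.26e-09) and Cdkn1a, the inhibitor p21, at 831 and 1034 CPM in WT and 469.8 and 491 CPM in KO (−0.95). The inhibitors thus lay on both sides, with p21 higher in WT and p18 higher in KO.

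Of 34 lysosome and autophagy genes, 13 were lower, 11 higher and 10 did not pass (median −0.03), and on totals alone 4 lower and 22 higher, and without KO control 2 the higher count was 7. Over all tested genes 30.2% were lower and 30.9% higher, near the 13 and 11 of this list. Tfeb, the transcription factor that drives lysosome genes, was at 7.74 and 10.2 CPM in WT and 23.7 and 18.0 CPM in KO (log2 1.21, SE 0.23, adjusted p = 0.00114), and the autophagy kinase Ulk1 at 14.1 and 15.9 CPM in WT and 32.7 and 29.1 CPM in KO (1.04). The TFEB relative Mitf was at 86.6 and 91.3 CPM in WT and 50.3 and 52.2 CPM in KO (−0.79), the autophagy receptor Sqstm1, also called p62, at 1483 and 1709 CPM in WT and 665 and 617 CPM in KO (log2 −1.31, SE 0.10, adjusted p = 1.78e-06), and the protease Ctsz at 1272 and 1427 CPM in WT and 657 and 657 CPM in KO (−1.04). The E-box CACGTG, which TFEB and MITF can bind, stood in 12 of 27 promoters of the list (44.4%), against 11.8% of tested genes and 8.09% of all genes with a promoter.

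Defining macrophage markers were high in all 4 libraries. Adgre1, which encodes the surface marker F4/80, was at 4348 and 4109 CPM in WT and 3874 and 4078 CPM in KO and did not pass (adjusted p = 0.446). Csf1r, the receptor for the macrophage growth factor M-CSF, was at 1695 and 1751 CPM in WT and 2045 and 2086 CPM in KO (0.26), and both were named after their values were seen. Lyz2, which encodes lysozyme, was at 15537 and 14665 CPM in WT and 16577 and 16678 CPM in KO and did not pass (adjusted p = 0.303), although it did on totals alone (0.63). Of 24 lineage genes, 11 were lower, 6 higher and 7 did not pass (median −0.16), and on totals alone 7 lower and 13 higher. Receptors for immunoglobulin G were among the lower genes, with Fcgr2b at 402 and 361 CPM in WT and 24.6 and 22.9 CPM in KO (log2 −3.999, SE 0.12, adjusted p = 6.82e-09), Fcgr1 at 986 and 1089.9 CPM in WT and 114 and 131 CPM in KO (−3.08) and Fcgr4 at 443 and 484 CPM in WT and 86.4 and 98.7 CPM in KO (−2.32). The lineage factor Cebpa was higher, at 8.97 and 7.98 CPM in WT and 50.6 and 45.4 CPM in KO (log2 2.49, SE 0.13, adjusted p = 1.34e-07). Of 19 genes of alternative activation, the state induced by IL-4 and related signals, 10 were lower, 6 higher and 3 did not pass (median −0.37). On totals alone they split into 9 lower and 8 higher, and with a minimum of 5 CPM 6 were lower. Arg1, arginase 1, was at 29.1 and 31.5 CPM in WT and 9.34 and 10.2 CPM in KO (−1.63), Chil3 at 96.2 and 133 CPM in WT and 24.1 and 28.0 CPM in KO (−2.12) and the crosslinking enzyme Tgm2 at 437 and 516 CPM in WT and 90.8 and 105 CPM in KO (−2.28). Trem2, a lipid-sensing receptor, was at 168 and 188 CPM in WT and 364 and 348 CPM in KO (1.002), and Gas6, a ligand of the clearance receptor MERTK, at 35.1 and 47.7 CPM in WT and 97.8 and 109 CPM in KO (1.33).

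Of 29 matrix enzymes, coagulation factors and complement components, 20 were lower, 3 higher and 6 did not pass (median −1.30). Cfb, factor B of the alternative complement pathway, was at 456 and 627 CPM in WT and 7.83 and 10.4 CPM in KO (log2 −5.87, SE 0.36, adjusted p = 4.13e-07), and Edn1, the vasoconstrictor endothelin 1, at 91.7 and 98.6 CPM in WT and 1.88 and 1.78 CPM in KO (log2 −5.62, SE 0.13, adjusted p = 1.05e-09). The protease inhibitor Timp2 stood higher at 48.8 and 68.9 CPM in WT and 115 and 130.2 CPM in KO (1.07). Among the most abundant genes, Fth1, ferritin heavy chain, was at 15428 and 17386 CPM in WT and 9713 and 10597 CPM in KO (−0.69), a call lost on totals alone (−0.20), and Actb, beta-actin, was at 11344 and 12799 CPM in WT and 5975 and 5867 CPM in KO (−1.03). Beta-actin was thus not level between these groups.

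Marker lists of further cell types from marrow were read in the same libraries. Of 14 tested neutrophil markers, 12 were lower and 0 higher, and the list of 16 summed to 1852 and 1844 CPM in WT and to 453 and 470 CPM in KO. The largest member in WT was Lcn2, a siderophore-binding protein that macrophages also make, at 1011 and 850.3 CPM in WT and 56.0 and 63.5 CPM in KO (log2 −3.96, SE 0.10, adjusted p = 1.86e-09). Csf3r followed at 413 and 479 CPM in WT and 162 and 182 CPM in KO. While 0 of the 16 markers were at 0 in all 4 libraries, some lay close to it, and these were named after their values were seen. Ly6g was at 0.0280 and 0.0896 CPM in WT and 0 in both KO libraries. Retnlg was at 0.0839 and 0.179 CPM in WT and 0 and 0.0324 CPM in KO, and both were too low to be tested. Cxcr2 was at 0.140 and 0.508 CPM in WT and 0.231 and 0.0973 CPM in KO. The granule genes Camp and Elane, which mark immature neutrophils, were at 2.54 and 3.29 CPM in WT and 0.561 and 0.292 CPM in KO and at 1.29 and 2.33 CPM in WT and 0.330 and 0.130 CPM in KO, and they were named after their values were seen. Mast cell and basophil markers summed to 31.8 and 36.9 CPM in WT and 0.693 and 0.714 CPM in KO. In WT nearly all of it was Hdc, the histamine-forming enzyme, at 30.6 and 35.2 CPM in WT and 0.429 and 0.487 CPM in KO (−5.89), while Cpa3, Mcpt8, Fcer1a and Tpsb2 were at 0 in all 4 libraries. Apart from Hdc the mast cell list was thus close to 0. B cell markers summed to 10.4 and 11.5 CPM in WT and 42.6 and 37.1 CPM in KO, nearly all of it Cd79b, at 10.3 and 11.4 CPM in WT and 42.5 and 36.8 CPM in KO (1.86), with Vpreb3 and Igll1 at 0. T and NK cell markers summed to 0.867 and 2.15 CPM in WT and 1.19 and 1.14 CPM in KO, with 7 of 10 at 0. T and NK cell markers were low throughout. Of 13 tested stromal and endothelial markers 6 were lower, 0 higher and 7 did not pass, and the list summed to 76.0 and 106 CPM in WT and 36.7 and 43.9 CPM in KO, with Vcam1, an adhesion molecule, at 12.6 and 25.2 CPM in WT and 0.0991 and 0.0973 CPM in KO (−6.50) and Kdr, a receptor for VEGF, at 19.0 and 24.8 CPM in WT and 1.29 and 1.52 CPM in KO (−3.86). The endothelial marker Pecam1, at 20.1 and 26.4 CPM in WT and 24.0 and 27.0 CPM in KO, did not pass. Dendritic cell markers summed to 171 and 199 CPM in WT and 81.7 and 80.7 CPM in KO, and erythroid and platelet markers to 312 and 399 CPM and to 237 and 218 CPM. The part of other cells in the results above was not tested, and in bulk samples fewer cells of a type and less RNA per cell cannot be told apart.

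The genotype difference in the control medium was set against that in untreated cells with an interaction term. It is negative where the KO minus WT difference was lower in the control medium than in untreated cells. This includes genes that stood higher in KO than in WT in untreated cells. Of 13171 genes, 3121 (23.7%) were called with a negative interaction and 2904 (22.0%) with a positive one. For Il12b the interaction was −10.21, for Ccl5 −8.51 and for Nos2 −7.07, and untreated cells held, as means, 0.0653 CPM in WT and 0.212 CPM in KO for Il12b, 1.92 CPM in WT and 1.56 CPM in KO for Ccl5 and 3.45 CPM in WT and 1.48 CPM in KO for Nos2. The untreated values of these genes were low in both genotypes. All 52 interferon-stimulated genes were called with a negative interaction, and 33 of 40 replication and mitosis genes with a positive one. The plot of list medians in both media shows all untreated medians between −0.45 and 0.15.

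**Figure D5:**
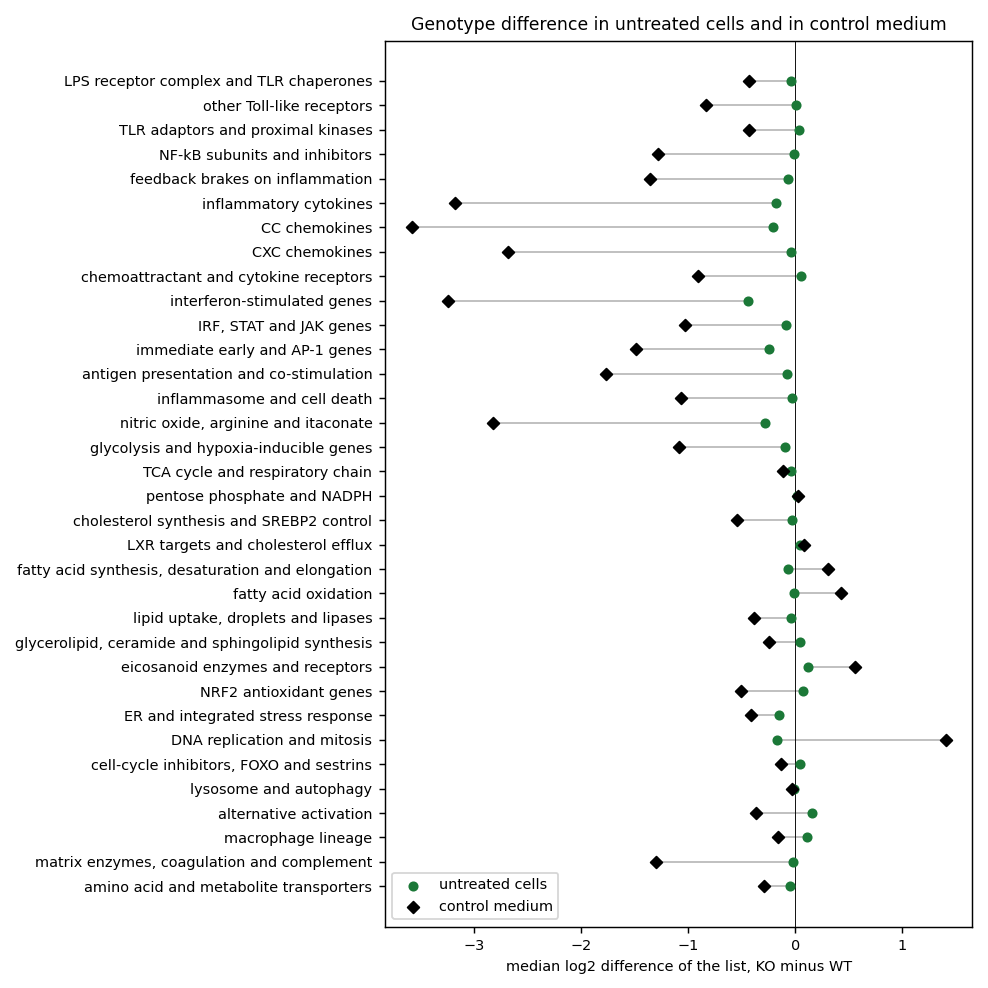
Median genotype difference of each gene list (x axis, log2, KO minus WT) in untreated cells (green circles) and in the control medium (black diamonds), joined by a grey line. The untreated circles lie near 0, with the interferon-stimulated genes farthest out at −0.45, while the control-medium diamonds reach from −3.58 for CC chemokines to 1.40 for DNA replication and mitosis.

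Few genes differed between the genotypes in both media. Of the 22 genes called in untreated cells, 16 were also called in the control medium, 14 with the same sign and 2 with the opposite sign. In the control medium 8047 of all 13171 tested genes were called, so most genes of any kind were called there. The untreated count itself moved with single libraries, to 11 without WT untreated 1 and 69 without WT untreated 2. Lrmda was at 0.626 and 0.629 CPM in WT and 10.1 and 9.86 CPM in KO in untreated cells, close to its control-medium levels, and Wdfy1 at 46.9 and 53.3 CPM in WT and 9.16 and 11.5 CPM in KO. Both genes thus separated the genotypes in both media. Mid1-ps1, a pseudogene, was listed at 0 in all 4 WT libraries of both media and stood at 2.87 and 1.78 CPM in KO control. Gm27177 was at 0.0280 and 0.0299 CPM in WT and 3.995 and 6.72 CPM in KO and Gm16867 at 0 and 0.0299 CPM in WT and 4.75 and 2.27 CPM in KO in the control medium, with WT near 0 in both media. The next 2 genes were named after their values were seen. Akap2, which anchors protein kinase A, changed sign, at 3.22 and 4.42 CPM in WT and 2.21 and 2.17 CPM in KO in the control medium (−0.76) and at 0.595 and 0.662 CPM in WT and 5.82 and 7.36 CPM in KO in untreated cells (3.19). Rab4a, a GTPase of recycling endosomes, changed sign in the opposite way, at 3.83 and 4.66 CPM in WT and 6.74 and 5.68 CPM in KO in the control medium and 12.4 and 12.8 CPM in WT and 6.12 and 6.52 CPM in KO in untreated cells. The stretch of Akap2 overlaps another entry, Pakap, also named after its values were seen. Pakap averaged 0.0559 CPM in WT and 0.736 CPM in KO in the control medium (2.52) and did not pass. How reads were split between Akap2 and Pakap was not tested.

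The chromosome 4 region within 15 Mb of Tlr4 held 68 tested genes, of which 23 were lower and 21 higher in KO in the control medium, 13 and 9 of them by at least 2-fold. Across all genes 30.2% and 30.9% were lower and higher. Of the 68, 3 (4.41%) were called in untreated cells, against 0.167% of all genes. They were, named after their values were seen, Gng10, a G protein gamma subunit 7.79 Mb away, Akap2 at 8.93 Mb and Ptprd, a receptor phosphatase at 9.01 Mb. Gng10 was at 19.0 and 20.7 CPM in WT and 33.5 and 32.8 CPM in KO in the control medium and 20.9 and 24.2 CPM in WT and 39.4 and 36.9 CPM in KO in untreated cells, so both KO libraries were above both WT libraries in each medium. Ptprd was at 0.0839 and 0 CPM in WT and 2.81 and 2.56 CPM in KO in the control medium. Other genes of the region were called in the control medium only, such as the copper transporter Slc31a1 at 395 and 352 CPM in WT and 106 and 118 CPM in KO (−1.74), Epb41l4b at 7.27 and 6.18 CPM in WT and 0.0330 and 0.0973 CPM in KO (−5.39) and the lysophosphatidic acid receptor Lpar1 at 25.3 and 27.9 CPM in WT and 5.08 and 4.15 CPM in KO (−2.51). Abca1, described above, lies in the same region.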

How the data were processed

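RNA from 10 libraries of bone marrow derived macrophages, 5 groups of 2, had been prepared with a stranded mRNA kit per the labels' protocols. Per the submitters' processing notes the tools included RSEM 1.2.12, STAR 2.4.0d, Trim Galore 0.2.8 and DESeq2, with no roles. The authors' build was not given in the sources used here. Deposited by the authors were 1 table of whole-number signal values per gene and another of rlog values on the log2 scale for 19209 genes. Where the fitted factor was above 1, low whole numbers fell on a grid with gaps. Reads multiplied by 1 factor per library and rounded would do so. WT control 2, KO control 1, WT untreated 2 and KO untreated 1 had fitted factors below 1 and skipped 0 low whole numbers. Every whole number lies on such a grid, so gaps cannot show the factor in these libraries. The deposited signal was not treated as raw counts and no count test was run.

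Signal values were divided by library totals times TMM factors computed here (trims of 30% and 5%) to give CPM. Of 45318 genes in the table, 20687 were above 0 and the 13171 that reached 10 in 2 or more libraries were tested with limma 3.58.1 (R 4.3.3, with trend) on log2(CPM + 0.1), over all 5 groups with 5 residual degrees of freedom. P-values were adjusted by the Benjamini-Hochberg method over all genes tested, and all tests were two-sided. The interaction is the control-medium difference minus the untreated one. The code of the fit was run on simulated data with few changed genes. That run could not test the scaling where many genes differ, and no result here rests on it. Depth is known only through the estimated reads, which ranged from 18.3 to 56.5 M over the 10 libraries, and no counting interval was computed. The labels give no batch or date.

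The members, the 34 gene lists and the 7 marker lists were chosen with earlier results of these data known. Named genes were Tlr4, the 12 largest called differences in each direction among protein-coding genes with at least 10 CPM in the higher group, values above 0 in all 4 libraries and no overlap on any scaling, up to 3 called members in each direction of each list with at least 5 CPM in the higher group, the members of the TLR4 receptor and adaptor lists, genes called in both media, called genes near Tlr4, the most abundant genes and other-cell markers over 10 CPM. A few of these are not reported here. Gene positions are from GRCm38 (GENCODE M21). Other scalings, pseudocounts, filters, the rlog table, a replicate block, fewer libraries and each library left out were tried.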

Additional observations from a re-analysis of the deposited data

Results flagged for a closer look

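The genotype difference in the control medium differed from that in untreated cells for 6025 genes by the interaction term of limma (Benjamini-Hochberg adjusted p under 0.05). Among the 12 lower genes with the largest differences (protein-coding, at least 10 CPM in the higher group and above 0 in all 4 libraries), the interaction on the log2 scale was −10.21 for Il12b, −8.51 for Ccl5, −7.07 for Nos2 and −7.13 for Cxcl9. It was −6.85 for Il6, −6.41 for Csf3, −7.25 for Il1a and −6.04 for Ifi205. It was −6.50 for Serpinb2, −5.64 for Upp1, −6.91 for Ptgs2 and −5.85 for Ccl12. Of these 12, Upp1 and Ccl12 were also called lower in untreated KO cells, and the others were not.

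Among the 12 higher genes under the same limits, the interaction was 4.13 for Pald1, 3.92 for St6gal1, 3.87 for Gpr155 and 3.48 for Rnf150. It was 3.50 for Sesn1, 3.35 for Fam214a, 3.09 for Nlrp1b and 3.26 for Zdhhc14. It was 2.86 for Slc46a3, 2.86 for Reps2 and 3.18 for Engase. Lrmda stood apart from the others at 0.59, and it was also higher in untreated KO cells.

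The sign of the genotype difference was opposite in the media for 2 genes called in both. The interaction was −3.95 for Akap2, which lies near Tlr4 on chromosome 4 and overlaps the entry Pakap, and 1.53 for Rab4a. No cause of these differences was tested.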

How the results depend on the processing

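Of 224 named genes, 199 kept their direction and their side of the threshold under every alternative that tested them (the minimum of 5 CPM tested 214), and 25 changed under at least 1 of them. Scaling by totals alone moved most. It gave 2077 lower and 7672 higher genes, 1142 and 3337 at 2-fold, and 1695 negative and 6518 positive interactions. It turned Tlr4 to 0.37 (adjusted p = 0.0228), Atp5b to 0.064, Cox7a2 to 0.080 and G6pdx to 0.072. With the 2-fold threshold 3372 genes were called in place of 8047. At 2-fold, 985 were higher with a pseudocount of 1 and 964 with a minimum of 5 CPM. The untreated count of 22 was 14 without a filter, 13 with the minimum of 5 CPM and 99 with a replicate block. The cause of these shifts was not tested.

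Leaving out 1 library in turn, so that the lone sample was assumed to vary like the other groups, left 6710 to 7084 genes called, 3363 to 3571 lower and 3255 to 3513 higher. At 2-fold, 1590 to 1775 were lower and 1519 to 1645 higher. Tlr4 lay between −0.25 and 0.02, the interaction count between 4916 and 5819 and the untreated count between 11 and 69.

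Replicate numbers are not stated to pair the samples, and the replicate differences of WT and KO control correlated at 0.02 across genes. Those of untreated and control-medium cells correlated at 0.315 in WT and 0.306 in KO. A replicate block gave 8455 calls, and 6585 interaction calls in place of 6025. That block was a replicate effect shared by WT and KO, so it cannot check for pairing within a genotype. The interaction fit took all libraries as independent. The count tests planned with edgeR and DESeq2 were not run, because the deposited values were not treated as raw counts. With 2 samples a group, small differences of low genes remain poorly resolved.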
